A study of Homo sapiens with 11 samples.

Results

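The elements described here are the Gypsy-like members of the long terminal repeat (LTR) class in RNA pulled down with J2, an antibody that recognises double-stranded RNA. They are all repeats whose name in the deposited repeat tables begins with LTR/Gypsy: 26113 of 5622516 repeat elements, or 3.38% of the 771683 LTR elements. They fall into 25 families. The cells were HCT116, an established human colorectal cancer line. Each J2 group is 1 library: control cells transfected with luciferase siRNA (siLuc) and given the solvent DMSO, cells with siLuc and decitabine (DAC, 500 nM for 5 days), and cells with an siRNA against Staufen1 (siStau1) and the same decitabine treatment. Decitabine is a cytosine analogue that traps DNA methyltransferases and lowers DNA methylation, and Staufen1 is a protein that binds double-stranded RNA. The 11 samples include no J2 library of siStau1 cells without decitabine, so siStau1 without decitabine cannot be described in J2 RNA. Where 3 values follow each other without names, their order is siLuc DMSO, siLuc DAC, siStau1 DAC. Total RNA of the same line was sequenced in 4 groups of 2 libraries, siLuc or siStau1 with DMSO or decitabine. The labels name J2 for the 3 enriched libraries, while the extraction protocol given for all 11 libraries speaks of an antibody to Staufen1.

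Gypsy elements, also called Ty3/Gypsy, are retrotransposons that copy themselves through RNA and share their gag and pol genes and their flanking LTRs with retroviruses. The LTRs carry the start and end signals of transcription, and the internal region between them carries the coding sequence. Copies in mammalian genomes are old, broken and no longer mobile, and many are single LTRs without an internal region. A few gag genes of this lineage were kept and became cellular genes, among them PEG10, ARC and the PNMA family. The repeat tables name each copy by family and number and give no position, so no element's sequence or location is shown here.

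The J2 libraries held 71473124 (siLuc DMSO), 68944777 (siLuc DAC) and 83037330 (siStau1 DAC) reads on repeats. With 1 library per condition there is no replicate spread and no test between conditions. Every interval below is a 95% interval for counting error alone, and it is too narrow if the 2 mates of a fragment were counted separately. Among Gypsy elements with 1 to 6 reads, even counts outnumbered odd ones in each library, 1837 against 704 elements in siLuc DMSO, 1525 against 750 in siLuc DAC and 2009 against 843 in siStau1 DAC. Reads are scaled to the library's total on repeats unless stated. A ratio therefore compares shares of J2 reads, not amounts of RNA per cell, and in RNA of whole cultures fewer cells with a transcript and less of it per cell cannot be told apart. In the authors' deposited table of total RNA, STAU1 itself stood at 35.5 FPKM (siLuc DMSO) and 33.7 (siLuc DAC) in control cells, and at 30.0 (siStau1 DMSO) and 27.1 (siStau1 DAC) after its siRNA. FPKM counts fragments per gene, corrected for gene length and library size. STAU1 was called in neither siStau1 comparison (authors' q-values 0.767 with DMSO and 0.685 with decitabine), so the table shows little loss of STAU1 RNA in the groups labelled siStau1.

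Gypsy elements took a small and different share of the J2 reads in the 3 libraries. They held 59325, 67596 and 95366 reads. These are 0.0830% of the reads on repeats (Wilson interval 0.0823 to 0.0837), 0.0980% (0.0973 to 0.0988) and 0.115% (0.114 to 0.116). The share was lowest with DMSO and highest in siStau1 DAC, and the 3 intervals do not overlap. Of the reads on LTR elements alone, Gypsy elements held 1.54%, 1.47% and 1.64%, so the order of the first pair of libraries turned when the other LTR elements were the reference. Per element, Gypsy copies had 2.27, 2.59 and 3.65 reads, fewer than ERV1 copies with 5.69, 6.29 and 8.53 and fewer than ERVL copies with 4.18, 5.47 and 6.66. Element lengths are not in the tables, so these are reads per copy and not per base.

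Most copies had no reads at all. Of the 26113 elements, 19426 had 0 reads in every library, and 3832 (14.7%), 3863 (14.8%) and 4799 (18.4%) had at least 1 read in siLuc DMSO, siLuc DAC and siStau1 DAC. Over all repeats the shares with a read were higher, 23.6% and 24.8% in the siLuc libraries alone. The 2046 elements with reads in all 3 libraries carried 86.5% of the Gypsy reads. A further 724 elements had reads in siLuc DMSO alone, 872 in siLuc DAC alone and 1330 in siStau1 DAC alone, the largest library. The 770 elements with reads in siLuc DMSO and siStau1 DAC but none in siLuc DAC carried 5.65% of the Gypsy reads, and one of them had 1403 reads. The 292 elements absent from siStau1 DAC alone carried 0.977% and the 653 absent from siLuc DMSO alone carried 2.87%. Where Gypsy elements were missed in a single library, the reads at stake were therefore most in siLuc DAC. These patterns were not counted over all repeats or LTR elements, so they show no trait of Gypsy copies.

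The reads were concentrated on few copies, and less so in siLuc DAC. The single most covered element of each library held 12.3%, 3.23% and 12.9% of the Gypsy reads. The 10 most covered held 25.9%, 13.4% and 24.5%. In siLuc DMSO 119 elements made up 50% of the Gypsy reads, against 190 in siLuc DAC and 143 in siStau1 DAC. Only 76, 110 and 133 elements reached 100 reads, and 4, 3 and 5 reached 1000. A lower top share in siLuc DAC was not particular to Gypsy elements. The top element held 8.41%, 4.28% and 8.69% of ERV1 reads, and 2.31%, 1.52% and 2.36% of all LTR reads. In ERVK it held 41.5%, 33.4% and 30.9%. In ERVL (0.669%, 0.712% and 0.665%) and ERVL-MaLR (0.658%, 0.707% and 0.762%) siLuc DAC was not the lowest.

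Summed over all elements, the log2 ratio was 0.24 (0.22 to 0.26) for siLuc DAC over siLuc DMSO, 0.23 (0.21 to 0.24) for siStau1 DAC over siLuc DAC and 0.47 (0.45 to 0.48) for siStau1 DAC over siLuc DMSO. These 3 comparisons share libraries and are not independent of each other. The first 2 depended on 1 copy, the internal fragment MamGyp-int_1861. Without it the sums were 0.43, 0.03 and 0.46, so the excess of siStau1 DAC over siLuc DAC was nearly gone. The sums also depended on the reference. Against totals outside Alu elements they were -0.08, 0.44 and 0.36, against totals on LTR elements -0.07, 0.16 and 0.09, and with the authors' own library factors 1.13, -0.09 and 1.04. The direction of siLuc DAC over siLuc DMSO was thus opposite for 2 of these references, and that of siStau1 DAC over siLuc DAC for the authors' factors.

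The internal regions, which hold the former gag and pol genes, come in 2 families, MamGyp-int and MamGypsy2-I. MamGyp-int, with 695 copies, had the most reads of all Gypsy families in siLuc DMSO and siStau1 DAC: 11924, 4177 and 19341 reads. Scaled to 1000000 reads on repeats this is 167, 60.6 and 233. Its log2 ratio was -1.46 (-1.51 to -1.41) for siLuc DAC over siLuc DMSO and 1.94 (1.89 to 1.99) for siStau1 DAC over siLuc DAC. It was the only Gypsy family of at least 1000 reads with a ratio under 0 in the first of these comparisons on this scale. Without MamGyp-int_1861, its most covered copy, the family's ratios were -0.09 (-0.15 to -0.03) and 0.48 (0.43 to 0.54). The near loss in siLuc DAC was thus mostly that of 1 copy.

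When all 3 MamGyp-int copies that were nearly silent in siLuc DAC (described further on) are left out, a choice made after seeing the data, 3501, 4169 and 5731 reads remain. On those reads the ratio for siLuc DAC over siLuc DMSO was 0.30 (0.24 to 0.37), on the side of the other families. The typical copy was on that side as well: the median over MamGyp-int copies with 20 or more reads was 0.36. MamGypsy2-I, the other internal family, has 2302 copies and its reads were spread more evenly. It had 2309, 3609 and 4513 reads, with log2 ratios of 0.70 (0.62 to 0.77) for siLuc DAC over siLuc DMSO and 0.05 (-0.01 to 0.12) for siStau1 DAC over siLuc DAC. Both decitabine libraries were above siLuc DMSO, and they did not differ from each other beyond counting error.

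**Figure D1:**
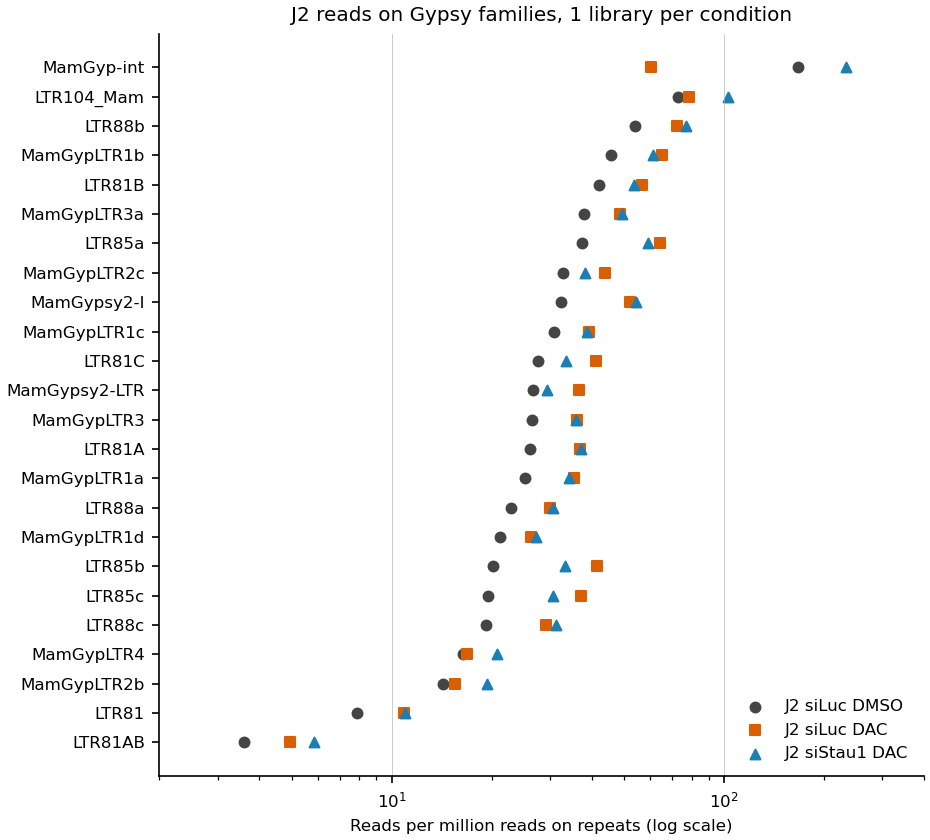
Reads per 1000000 reads on repeats (horizontal, log scale) of the 24 Gypsy families with at least 1000 reads in all, 1 point per J2 library, ordered by the level in siLuc DMSO. MamGyp-int at the top runs against the rest: 60.6 in siLuc DAC against 167 in siLuc DMSO and 233 in siStau1 DAC.

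The LTRs proper, from which transcription of such an element starts, make up 22 of the 24 families that reached 1000 reads over the 3 libraries. Summed, they had 45076, 59810 and 71490 reads, or 631, 868 and 861 per 1000000 reads on repeats. The log2 ratio was 0.46 (0.44 to 0.48) for siLuc DAC over siLuc DMSO and -0.01 (-0.03 to 0.005) for siStau1 DAC over siLuc DAC. For siStau1 DAC over siLuc DMSO it was 0.45 (0.43 to 0.47). On this scale LTRs of this lineage therefore took a larger share of J2 reads in both decitabine libraries than in siLuc DMSO, at nearly the same level in the 2. All LTR elements together also rose, with 5.37%, 6.66% and 6.98% of the reads on repeats, so the rise was not particular to this lineage. The authors' factors shift siStau1 DAC over siLuc DAC by -0.32, and totals outside Alu elements shift it by 0.21.

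By groups of related LTRs, the sizes differed. The 9 MamGypLTR families, the LTRs named for the mammalian Gypsy elements, had 17922, 22573 and 27030 reads, with a ratio of 0.38 (0.36 to 0.41) for siLuc DAC over siLuc DMSO. The 5 LTR81 families had 7658, 10376 and 11721 reads and a ratio of 0.49 (0.45 to 0.53). The 3 LTR88 families had 6873, 9077 and 11531 reads and a ratio of 0.45 (0.41 to 0.50). The 3 LTR85 families stood highest, with 5521, 9849 and 10211 reads and a ratio of 0.89 (0.84 to 0.93). LTR85 and LTR88 carry a question mark in the class given by the tables, LTR/Gypsy?, so their place in the Gypsy lineage is uncertain. These 6 families hold 7875 of the 26113 elements. Without them the sum over the remaining Gypsy elements gave 0.10 for siLuc DAC over siLuc DMSO and 0.33 for siStau1 DAC over siLuc DAC. That remaining sum includes the internal families and so MamGyp-int_1861. The 16 LTR families without a question mark all had ratios above 0 for siLuc DAC over siLuc DMSO, with a median of 0.44. For siStau1 DAC over siLuc DAC 8 of the 16 were higher and 8 lower.

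Family by family, 23 of 24 had a ratio above 0 for siLuc DAC over siLuc DMSO, against 82.2% of all 1983 repeat families of that size, and the interval lay above 0 for 21. The ratios ran from -1.46 in MamGyp-int to 1.04 (0.95 to 1.13) in LTR85b, with LTR85c at 0.92 and LTR85a at 0.78 next to it. At the low end MamGypLTR4 stood at 0.04 (-0.08 to 0.15), LTR104_Mam at 0.11 (0.05 to 0.16) and MamGypLTR2b at 0.12. For 2 of these 3, MamGypLTR4 and MamGypLTR2b, the libraries did not differ beyond counting error. Scaled to totals outside Alu elements 19 of the 24 families were higher, and scaled to totals on LTR elements 20. The share over all repeat families was taken for totals on repeats alone. The median copy was higher in every one of the 24 families, from 0.36 in MamGyp-int to 1.64 in LTR81AB, among copies with 20 or more reads in the 2 libraries. Over LTR elements the median was 0.57. Neither family medians nor intervals above 0 were counted over all repeat families. Every Gypsy family of this size was also higher in siStau1 DAC than in siLuc DMSO (24 of 24, against 86.6% of all families), with ratios from 0.14 in MamGypsy2-LTR to 0.75 in MamGypsy2-I. Against totals on LTR elements this count was 17, again without a share over all families.

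Between the 2 decitabine libraries the families were divided. In siStau1 DAC 13 of 24 were higher than in siLuc DAC, against 35.4% of all families, and 11 were lower. The interval lay above 0 for 7 families and below 0 for 8. Beside MamGyp-int the highest were LTR104_Mam at 0.39 (0.34 to 0.44), MamGypLTR2b at 0.32 and MamGypLTR4 at 0.30. The lowest were LTR85b at -0.32, MamGypsy2-LTR at -0.32 (-0.40 to -0.24) and LTR81C at -0.29. The count of 13 turned with the reference, from 2 families higher with the authors' factors to 7 on LTR totals and 20 outside Alu elements. The median copy was higher in 9 families and lower in 15. Over all repeat families only the count for totals on repeats was made, with no count of intervals or medians.

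**Figure D2:**
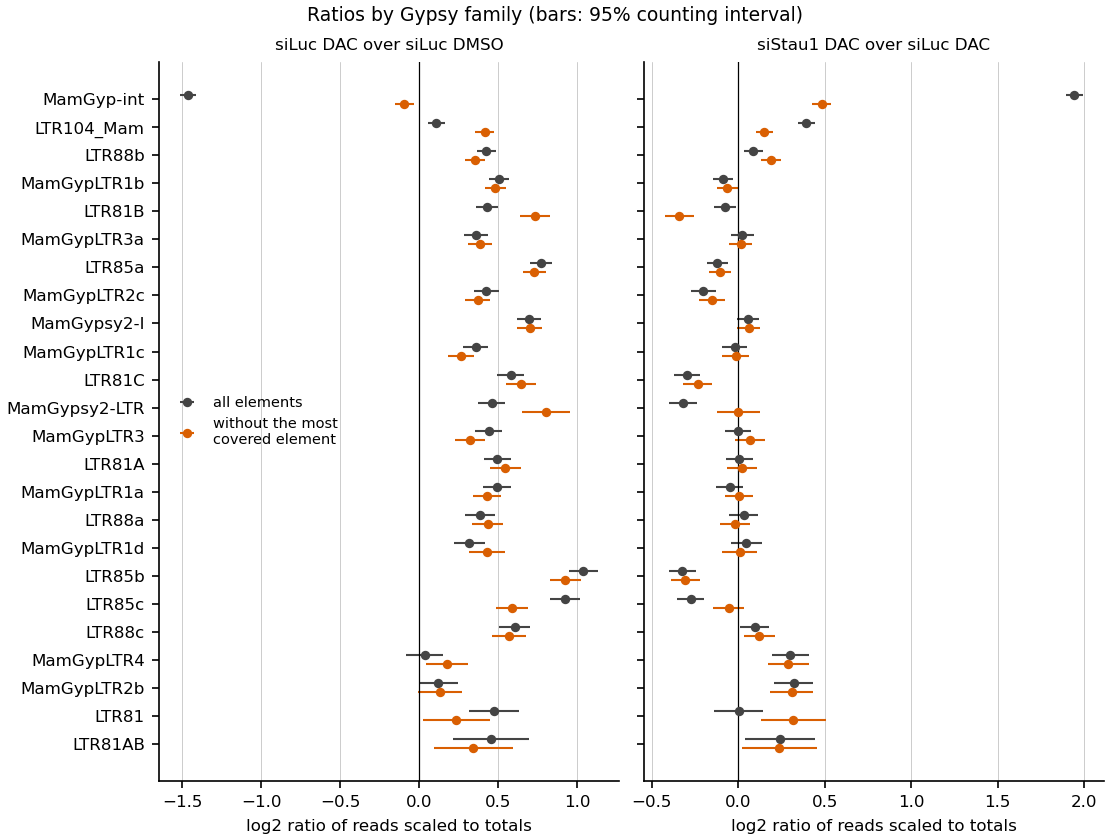
Log2 ratio of summed reads per family, scaled to totals on repeats, with 95% counting intervals, for all copies and without the most covered copy. In the left panel 23 of 24 families lie right of 0. MamGyp-int moves from -1.46 to -0.09 without 1 copy, and in the right panel from 1.94 to 0.48.

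Single copies set several other family values. MamGypsy2-LTR_185_8 had 1322, 1548 and 1266 reads, from 51.9% (siStau1 DAC) to 69.5% (siLuc DMSO) of its family's reads. With it MamGypsy2-LTR had a ratio of 0.46 for siLuc DAC over siLuc DMSO and -0.32 for siStau1 DAC over siLuc DAC. Without it the values were 0.80 and 0.0011, so the family's deficit in siStau1 DAC was that of this copy. LTR81B_303_4, with 1471, 1445 and 2123 reads, held 49.0% of LTR81B reads in siLuc DMSO. Without this copy LTR81B went from 0.43 to 0.73 for siLuc DAC over siLuc DMSO and from -0.07 to -0.34 for siStau1 DAC over siLuc DAC. In LTR104_Mam the copy LTR104_Mam_378_7 had a like effect: without it the family was at 0.41 and 0.15, in place of 0.11 and 0.39. LTR85c, led by LTR85c_359_3, went from 0.92 to 0.59 for siLuc DAC over siLuc DMSO. The remaining family, X1_LR, has 15 copies and 16, 0 and 22 reads, too few for a ratio to be read.

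The largest differences between libraries belonged to 4 copies with few or no reads in siLuc DAC. MamGyp-int_1861 had 7311, 8 and 12330 reads. This is a log2 ratio of -9.78 (-11.00 to -8.80) for siLuc DAC over siLuc DMSO and 10.32 (9.34 to 11.53) for siStau1 DAC over siLuc DAC, while siStau1 DAC over siLuc DMSO was 0.54 (0.50 to 0.58). LTR104_Mam_378_7, an LTR listed in the row directly before it, had 993, 2 and 1318 reads, with a ratio of -8.90 (-11.95 to -7.05) for siLuc DAC over siLuc DMSO. Both copies were thus abundant in 2 libraries and nearly without reads in the third. A pair of further internal copies listed in neighbouring rows did the same. MamGyp-int_584_2 had 611, 0 and 792 reads, and MamGyp-int_429 had 501, 0 and 488. With 0 set to the limit of 3 reads that a count of 0 allows, their ratios for siLuc DAC over siLuc DMSO were at most -7.62 and -7.33.

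These 4 were the copies that reached 100 reads both in siLuc DMSO and in siStau1 DAC and had at most 5% of the lower of those counts in siLuc DAC, a rule set after seeing the data. They are 4 of 74 eligible Gypsy copies (5.41%), against 1.57% over all repeats and 5.18% over LTR elements. Together they held 15.9%, 0.0148% and 15.7% of the Gypsy reads. Without them the summed log2 ratio was 0.49 for siLuc DAC over siLuc DMSO and -0.02 for siStau1 DAC over siLuc DAC. Reads in neighbouring rows were few apart from 1 repeat. The G-rich low-complexity repeat listed before MamGyp-int_429 had 331, 0 and 359 reads, the same pattern in a repeat of another class. The 2 repeats next to the pair LTR104_Mam_378_7 and MamGyp-int_1861 had 0 reads in all libraries, and the AluSx element in the row after those had 14, 0 and 24.

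**Figure D3:**
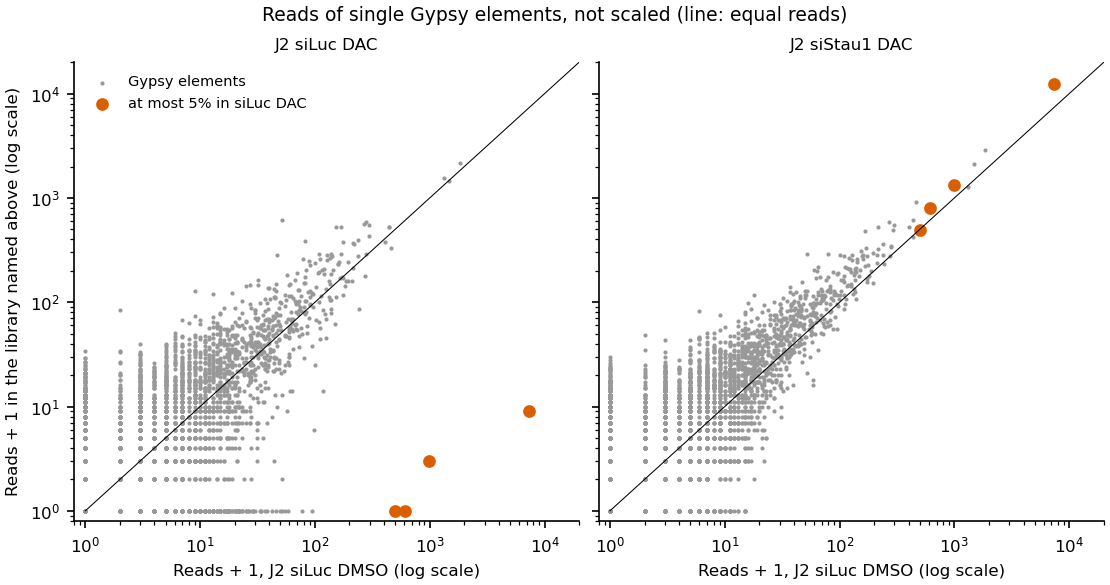
Reads plus 1 of each Gypsy element with reads, siLuc DMSO (horizontal) against siLuc DAC (left) and siStau1 DAC (right), both axes log, not scaled. The 4 marked copies have 8, 2, 0 and 0 reads in siLuc DAC and lie close to the line of equal reads in siStau1 DAC.

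Absence from siLuc DAC was not limited to these 4. Among Gypsy copies with 20 or more reads in both other libraries, 28 of 428 (6.54%) had 0 reads in siLuc DAC, against 2.15% over all repeats, 5.34% over LTR elements, 6.90% over ERV1 elements and 1.70% over ERVK elements. These 28 include MamGyp-int_584_2 and MamGyp-int_429. They came from 17 families, with 6 in LTR104_Mam, 3 in MamGypLTR4 and 3 in MamGyp-int. Their reads in siLuc DMSO ran from 20 to 611 with a median of 32.5, and in siStau1 DAC from 20 to 792 with a median of 44. By the same rule 2 of 532 Gypsy copies (0.376%, against 0.202% over all repeats) had 0 reads in siLuc DMSO. None of 367 had 0 reads in siStau1 DAC, which allows a share of up to 0.817%, against 0.0042% over all repeats. Copies at 0 were thus more frequent in siLuc DAC than in the other libraries, among Gypsy copies and over all repeats. With 1 library the part of that library itself was not tested.

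The other strongly covered copies had reads in every library. MamGyp-int_4032, the second most covered, had 1839, 2181 and 2860 reads, with ratios of 0.30 (0.21 to 0.39) for siLuc DAC over siLuc DMSO and 0.12 (0.04 to 0.20) for siStau1 DAC over siLuc DAC. This internal copy followed the majority of families rather than its own family's sum. LTR104_Mam_520 had 461, 328 and 909 reads, and was lower in siLuc DAC by -0.44 (-0.65 to -0.23) and higher in siStau1 DAC over siLuc DAC by 1.20 (1.02 to 1.39). The Alu elements listed on either side of it had 426, 160 and 661 reads and 585, 211 and 1111 reads, the same order of libraries. LTR85a_279_5 had 268, 567 and 584 reads, and MamGypLTR3_493 had 295, 551 and 545. Both LTRs were near a log2 ratio of 1 for siLuc DAC over siLuc DMSO (1.13 and 0.95). Scaled to totals, both were lower in siStau1 DAC than in siLuc DAC, at -0.23 (-0.39 to -0.06) and -0.28 (-0.46 to -0.11). LTR81A_256, with 438, 526 and 610 reads, had smaller ratios of 0.32 (0.13 to 0.50) and -0.05 (-0.23 to 0.12).

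Over single copies the shift with decitabine was broader than the sums show. Among the 1100 Gypsy copies with 20 or more reads in siLuc DMSO and siLuc DAC together, the median log2 ratio was 0.69 (0.61 to 0.78), with 0.5 reads added to each count. At least 2-fold higher in siLuc DAC were 441 copies (40.1%), against 21.3% of all repeats and 36.1% of LTR elements. At least 2-fold lower were 136 (12.4%), against 17% of all repeats and 12.6% of LTR elements. The median over LTR elements was 0.57 and over all repeats 0.01. Gypsy copies thus stood 0.67 above the median repeat and 0.11 above the median LTR element, differences that a scaling of whole libraries cannot move. With the authors' factors, which add 0.89 to every log2 ratio of this comparison, 740 copies were 2-fold higher and 72 lower. With totals outside Alu elements, which take away 0.32, the counts were 349 and 173. The median over all repeats moved to 0.90 and -0.31 with these scalings, and copies past 2-fold were not counted over all repeats there.

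In siStau1 DAC over siLuc DMSO the median over 1192 copies was 0.55 (0.49 to 0.62), against 0.45 over LTR elements and 0.04 over all repeats. There were 374 copies (31.4%) at least 2-fold higher, against 14.5% of all repeats and 27.7% of LTR elements. At least 2-fold lower were 68 (5.70%), against 8.27% of all repeats and 4.85% of LTR elements. With the authors' factors these counts were 664 and 19, and against totals on LTR elements 237 and 119. The median over all repeats was then 0.60 and -0.34, and no counts over all repeats were made at these scalings. In siStau1 DAC over siLuc DAC the median over 1325 copies was -0.07 (-0.13 to -0.02), next to -0.06 over LTR elements and 0.03 over all repeats. Copies at least 2-fold higher numbered 246 (18.6%), against 15.5% of all repeats and 18.3% of LTR elements. Copies at least 2-fold lower numbered 262 (19.8%), against 14.8% of all repeats and 17.2% of LTR elements. With the authors' factors 190 were higher and 374 lower, and with totals outside Alu elements 295 higher and 198 lower. Here too no counts over all repeats were made, and the median over all repeats was -0.30 and 0.23. The Gypsy median was positive outside Alu elements (0.14) and with a minimum of 10 reads (0.0035), so its sign in this comparison is not settled. In all 3 comparisons the Gypsy median lay on the same side of the median repeat as that of the 4 other LTR superfamilies.

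**Figure D4:**
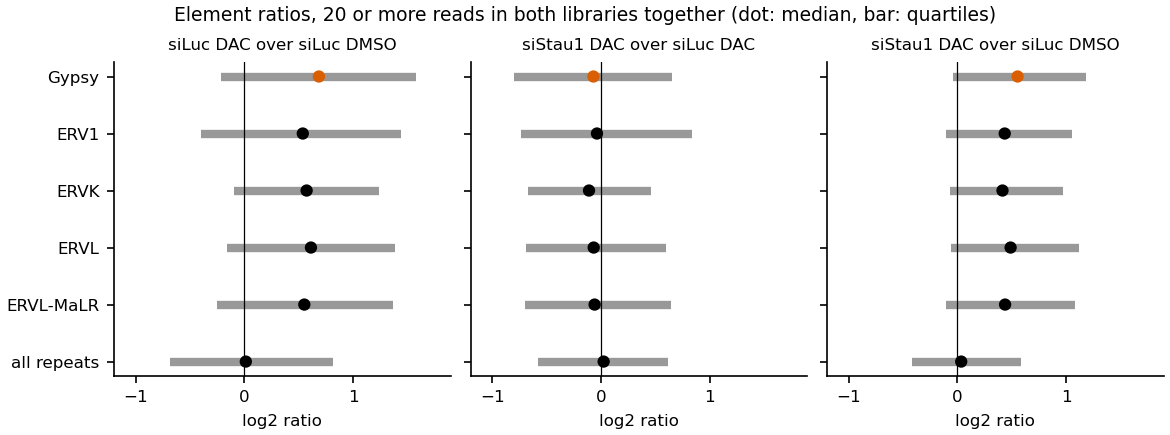
Median (dot) and quartiles (bar) of element log2 ratios, scaled to totals on repeats, for Gypsy copies, the other LTR superfamilies and all repeats, in 3 comparisons of J2 libraries. Gypsy medians are 0.69, -0.07 and 0.55, against 0.01, 0.03 and 0.04 over all repeats.

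Among copies with 100 or more reads in the 2 libraries, the 3 highest ratios in siLuc DAC over siLuc DMSO were those of LTRs. They had few reads in siLuc DMSO, which a ranking by this ratio favours. LTR81C_404_3 had 8, 127 and 27 reads, a ratio of 4.04 (3.02 to 5.28). The MLT1I element listed after it, an LTR of another superfamily, had 7, 119 and 66 reads. LTR85c_359_3 had 51, 609 and 287 reads, a ratio of 3.63 (3.22 to 4.07), and the MIRb elements on either side of it had 31, 267 and 190 reads and 106, 415 and 165 reads. MamGypLTR1a_583 had 12, 118 and 8 reads, a ratio of 3.35 (2.49 to 4.34), and the Tigger23a element after it had 5, 53 and 10. In each of these 3 cases a neighbouring row of another repeat class had the same order of siLuc DMSO and siLuc DAC.

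The lowest ratios in siStau1 DAC over siLuc DAC were partly those of the same copies: MamGypLTR1a_583 at -4.15 (-5.40 to -3.13), LTR81C_404_3 at -2.50 and MamGypLTR3_276_6 at -2.12, the last with 56, 180 and 50 reads. Both rankings share the siLuc DAC library, so a high count there raises the first ratio and lowers the second. The overlap follows in part from that choice and is not a separate result. In siStau1 DAC over siLuc DMSO the extremes were smaller. The highest were LTR104_Mam_234_13 with 17, 39 and 117 reads (2.57, 1.83 to 3.39), LTR81A_295_5 with 15, 88 and 98 reads (2.49, 1.70 to 3.38) and LTR85c_359_3 (2.28). The lowest were MamGypsy2-I_241_3 with 93, 37 and 54 reads (interval -1.51 to -0.50), LTR104_Mam_240_5 with 87, 70 and 54 (-0.90) and MamGypLTR3a_587 with 71, 36 and 49 (-0.75).

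A repeat inside a longer transcript shares reads with what lies next to it, so each Gypsy copy was set beside the repeats of other classes listed within 3 rows of it. The tables do not state that their row order follows the genome. For 1018 copies with 20 or more reads on both sides, Spearman's rho between the copy's ratio and that of its neighbours was 0.493 in siLuc DAC over siLuc DMSO. It was 0.547 over 1226 copies in siStau1 DAC over siLuc DAC and 0.156 over 1076 copies in siStau1 DAC over siLuc DMSO. These are descriptions across copies of the same libraries. In siLuc DAC over siLuc DMSO 71.0% of copies lay on the same side of 0 as their neighbours. The copy exceeded its neighbours by a median of 0.37 (0.25 to 0.45) in that comparison and by 0.32 (0.22 to 0.40) in siStau1 DAC over siLuc DMSO. The median difference was -0.07 (-0.13 to 0.003) in siStau1 DAC over siLuc DAC. Copy and surroundings thus went together in part, and in both comparisons with siLuc DMSO the median Gypsy copy stood above its surroundings. Copies of the other LTR superfamilies were not set beside their neighbours, so this was not shown to be particular to Gypsy copies.

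Genes listed as descended from Gypsy elements were read from the total RNA. There the authors' deposited table gives 1 FPKM value per group and no value per library, so no spread can be shown. The list holds 26 genes. It includes GIN1 and NYNRIN, grouped as integrase derived, whose descent from Gypsy elements in particular was not tested. Of these, 13 were under 1 FPKM in all 4 groups, 10 were at 1 FPKM or more in all of them, and 8 were listed at 0 in both DMSO groups. Calls below are the authors', at a q-value under 0.05. In siLuc DAC over siLuc DMSO 5 of 14 tested genes rose and none fell, against 8.71% and 4.78% of all genes tested. In siStau1 DAC over siStau1 DMSO 4 of 14 rose and none fell, against 4.56% and 2.89%.

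Genes of the PEG10 and RTL group, kept from gag of sushi-ichi type elements, gave 3 of these calls in siLuc cells. PEG10, an imprinted gene needed for the placenta (chromosome 7, 94656325 to 94669695, hg38), stood at 1.55 and 6.41 FPKM without and with decitabine in siLuc cells, and at 2.58 and 9.58 FPKM in siStau1 cells. The same order, siLuc and then siStau1, each without and then with decitabine, is kept for the genes that follow. It rose with decitabine in both siRNA arms in the authors' deposited table (q-values 0.0285 and 0.0254). RTL5 (chromosome X) had 0.304, 1.93, 0.249 and 0.977 FPKM and was called in siLuc cells (q-value 0.0173). RTL8C (chromosome X) had 5.86, 23.4, 7.71 and 17.8 FPKM, also called in siLuc cells (q-value 0.0134). RTL8A, RTL8B and RTL8C are near-identical copies, so the division of reads among them is uncertain: RTL8A had 8.15, 13.1, 9.16 and 11.4 FPKM with no call. RTL6 was nearly level, at 6.32, 5.43, 5.72 and 4.54 FPKM.

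ARC, whose protein forms virus-like capsids in neurons, had 1.45, 21.5, 1.67 and 7.38 FPKM. It rose in siLuc cells (authors' q-value 0.00162), and it was the 1 gene of 15 tested that was called between siStau1 DAC and siLuc DAC, where it was lower (q-value 0.00415). Over all genes tested in that comparison 0.469% were called lower and 0.434% higher. In the PNMA family, PNMA5 (chromosome X, 152988824 to 152994127, hg38) was listed at 0 in both DMSO groups. It stood at 67.2 and 33.1 FPKM in the siLuc and siStau1 groups with decitabine and was called in both arms (q-value 0.00162). CCDC8 had 0.0303, 2.46, 0 and 1.80 FPKM and PNMA8A had 0.0192, 0.452, 0 and 0.537, both called in siStau1 cells alone (authors' q-value 0.00162). In siLuc cells CCDC8 missed the call (0.599) and PNMA8A was not tested, and whether the 2 arms differ was not tested.

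Several of the more abundant genes of this list were not called in any comparison. MOAP1, a PNMA relative in apoptosis signalling, had 8.06, 5.78, 5.84 and 7.34 FPKM. GIN1, derived from an integrase, had 5.48, 1.96, 12.4 and 3.29 FPKM, with no call in any of the 4 comparisons. Without decitabine, 0 of 10 tested genes were called in siStau1 DMSO over siLuc DMSO, in the authors' deposited Cuffdiff table, and 0 had an unadjusted p under 0.05. Of all genes tested there, 0.333% were called higher and 0.466% lower. Medians of the log2 ratio of FPKM plus 0.1 were taken over listed genes with at least 0.1 FPKM in either group. The median was 1.57 in siLuc DAC over siLuc DMSO, against 0.39 over all genes, and 0.54 against 0.25 in the siStau1 arm. Genes listed at 0 with DMSO pass that minimum only through decitabine, which raises these 2 medians. Without the minimum they were 0.94 and 0.32, against 0 over all genes. In the siLuc median 7 genes were under 1 FPKM in all 4 groups, and with 1 FPKM added it was 0.47. With the minimum, the median was 0.22 against -0.03 in siStau1 DMSO over siLuc DMSO. In siStau1 DAC over siLuc DAC it was -0.37 against -0.14.

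**Figure D5:**
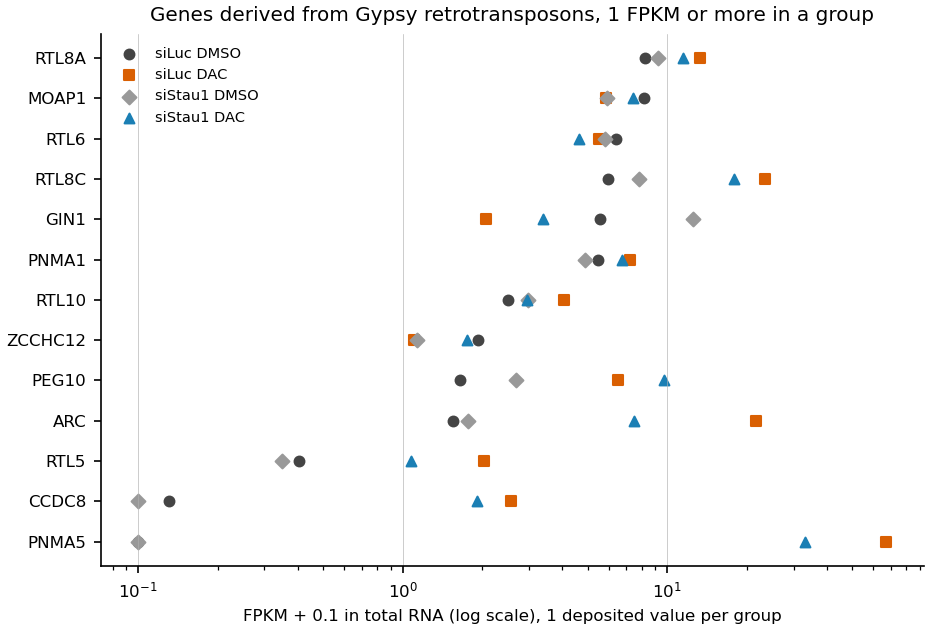
FPKM plus 0.1 in total RNA (horizontal, log scale) of the genes listed as derived from Gypsy elements that reach 1 FPKM in a group. There is 1 deposited value per group and so no error bar. PNMA5 is listed at 0 in both DMSO groups and at 67.2 and 33.1 with decitabine, and ARC runs from 1.45 to 21.5 in siLuc cells.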

How the data were processed

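RNA was sequenced from HCT116 cells, as 3 J2-bound libraries and 8 total-RNA libraries. The submitters' processing notes name bcl2fastq 2.20, HISAT2 2.1.0, featureCounts, DESeq 1.36.0, Cuffdiff 2.2.1, Cuffnorm 2.2.1 and build hg38, without roles. How reads with several matches were counted is not given in the sources used here. The deposited repeat tables hold, in siLuc DMSO, the read count per element plus 1, and in the other libraries a signal that is that count times 1 library factor (1.92 in siLuc DAC, 1.27 in siStau1 DAC). Division by the column minimum gave whole reads for 100% of values, within 1e-06. The authors deposited FPKM, p-values and q-values for total RNA in Cuffdiff's layout, per the file headers. The total-RNA table mapped its 4 groups by name.

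Shares have Wilson 95% intervals, ratios exact conditional binomial intervals, medians order-statistic intervals. The ratio script was tested on simulated data. Families with 1000 or more reads are named. So are the 10 elements with most reads, the 3 highest and 3 lowest elements per comparison among those with 100 or more reads, called genes and the 5 genes with the highest FPKM in siLuc DMSO. Members and lists were chosen with earlier results of these data known. Python 3.11.15, pandas 2.3.3, numpy 2.4.6 and scipy 1.17.1 were used. Gene positions are from GENCODE v29.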

Additional observations from a re-analysis of the deposited data

How the results depend on the processing

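No paired analysis was possible because each J2 group has 1 library and the total-RNA table gives 1 value per group. For the same reason no library could be left out, and no count test could be run on the recovered reads. The share of Gypsy reads in siLuc DMSO, siLuc DAC and siStau1 DAC was 0.195%, 0.184% and 0.250% of reads outside Alu elements and 1.54%, 1.47% and 1.64% of reads on LTR elements. It was 0.0657%, 0.0706% and 0.0887% without the question-mark classes. In siLuc DMSO and siStau1 DAC it was 0.0728% and 0.099998% without MamGyp-int_1861, and 0.0698% and 0.0969% without the 4 nearly silent copies.

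The summed log2 ratio of siLuc DAC over siLuc DMSO was 1.13 with the authors' factors, -0.082 outside Alu elements and -0.069 on LTR totals. It was 0.43 without the most covered copy, 0.44 without that of every family and 0.10 without the question-mark classes. That of siStau1 DAC over siLuc DAC was, in the same order, -0.094, 0.44, 0.16, 0.029, 0.044 and 0.33. That of siStau1 DAC over siLuc DMSO was 1.04, 0.36 and 0.091 for the scalings, 0.48 without the top copy of every family and 0.43 without the question-mark classes. Chosen after seeing the data, leaving out the nearly silent copies gave 0.49 and -0.017, and leaving out MamGyp-int 0.47 and -0.0068, for the first 2 comparisons.

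The median over copies was 1.57, -0.39 and 1.12 with the authors' factors, in the order siLuc DAC over siLuc DMSO, siStau1 DAC over siLuc DAC, siStau1 DAC over siLuc DMSO. Outside Alu elements it was 0.36, 0.14 and 0.44. With a minimum of 50 reads it was 0.59 and 0.46 in the comparisons with siLuc DMSO, and with a minimum of 10 it was 0.0035 in siStau1 DAC over siLuc DAC. Copies past 2-fold numbered 577, 508 and 442, and 191, 137 and 120 with a minimum of 50 reads, where fewer copies enter. With the authors' factors 683 passed in siStau1 DAC over siLuc DMSO. Families higher in siStau1 DAC over siLuc DAC numbered 2 with the authors' factors. Where a scaling moved a value, it shifted all elements by 1 amount. For the other changes the cause was not tested.

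Without its most covered copy a family's ratio changed sign in 4 of 24 families in siStau1 DAC over siLuc DAC (LTR88a, MamGypLTR1a, MamGypLTR3 and MamGypsy2-LTR) and in 0 families in each of the other comparisons. Of the 4 only MamGypsy2-LTR had an interval without 0, and its ratio went to 0.0011. Of the remaining 71 of 72 ratios, 26 left their counting interval and 45 stayed within it. Of the genes, 2 in place of 5 passed a q-value of 0.01 in siLuc DAC over siLuc DMSO, and their median was 0.47 with 1 FPKM added. At this depth 19426 of the 26113 copies had 0 reads, and the median copy with reads had 4 or 5.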
